A study of Rattus norvegicus with 6 samples.

Results

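The miRNAs of the imprinted Dlk1-Dio3 domain were examined in small RNA libraries of rat plasma exosomes, the small membrane vesicles that cells release into blood. Members were taken by name, from a list of miRNA numbers that belong to the domain, with the entry of the highest summed value where a mature miRNA was listed more than once. They came to 55 of the 420 mature miRNAs in the table. Of 42 numbers on the list, 37 were found, and miR-540, miR-654, miR-665, miR-667 and miR-673 had no entry. Members were thus chosen by name, and a measured value decided only which entry of a repeated miRNA was kept. The list itself was set with earlier results of these data known.

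The study compared plasma exosomes of adult male Sprague Dawley rats weighing 200 to 250 g in 2 groups. EXO2 (libraries S1, S2 and S3) came from rats injected intraperitoneally for 7 days with melatonin, the hormone of the pineal gland, at 10 mg/kg in 5% DMSO and PBS. EXO1 (libraries N1, N2 and N3) came from rats that had received this solvent alone, so both groups carried DMSO. Plasma was taken on day 8. The labels give PBS and centrifugation, whereas the methods give saline and an isolation kit. The sources do not say that each of the 3 libraries per group was a separate animal, so the p-values given here cover differences between libraries and perhaps only technical ones.

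Dlk1-Dio3 is an imprinted domain, in which the parental origin of the chromosome decides which copy is read. The paternal copy expresses protein-coding genes such as Dlk1, Rtl1 and Dio3, and the maternal copy expresses long non-coding RNAs, among them Meg3, Rian and Mirg, which hold many miRNAs and small nucleolar RNAs. This has been worked out mainly in mouse and sheep, where the miRNAs are known from embryo, placenta, muscle and brain, and those antisense to Rtl1 cut its transcript.

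In the RefSeq annotation of the rat assembly GRCr8, 53 of the 55 members had a mature sequence, all on the plus strand of chromosome 6. Their hairpins lay at chr6:134298084-134579838, a span of 282 kb. They fell into 3 sub-clusters. The first, from Meg3 to the antisense of Rtl1 (chr6:134298084-134331416), held 13 members. The hairpin of miR-770 lay within Meg3, and 5 hairpins overlapped Rtl1, the gene on the opposite strand. The second, named here for Rian (chr6:134347815-134354569), held miR-341 and miR-370-3p. After a gap of 189 kb came the third, from miR-379 to miR-410 (chr6:134543445-134579838), with 40 members in 36.4 kb. The annotation placed the hairpin of miR-370 in the long non-coding RNA gene LOC102555254, whose other hairpins belonged to the third sub-cluster. Further hairpins of the third lay in LOC120103623. No gene was listed over the hairpin of miR-341, and no overlapping gene was named Rian. The name of the second sub-cluster thus does not rest on this annotation.

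The sequences shown first are members that were among the 5 most abundant of the cluster in at least 1 library, as was miR-136-3p, which stands in the next set. They are RefSeq mature sequences from 5′ to 3′, with the seed, bases 2 to 8, in capitals, because the seed sets most of the target choice of a miRNA.
miR-127-3p: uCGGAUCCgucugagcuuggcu
miR-379-5p: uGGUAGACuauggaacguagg
miR-411-5p: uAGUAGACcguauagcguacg
miR-434-5p: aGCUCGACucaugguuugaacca
miR-434-3p: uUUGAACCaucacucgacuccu
miR-341: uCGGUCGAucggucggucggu
miR-370-3p: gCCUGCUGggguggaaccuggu
miR-134-5p: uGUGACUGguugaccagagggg
miR-541-5p: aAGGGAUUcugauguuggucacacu
miR-409a-3p: aAUGUUGCucggugaacccc

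The next set holds members that were lower in EXO2 by the thresholds described later, together with miR-493-3p, the other arm of the miR-493 hairpin, and miR-300-3p, which resembles miR-381-3p.
miR-493-5p: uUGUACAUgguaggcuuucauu
miR-493-3p: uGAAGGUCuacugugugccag
miR-136-3p: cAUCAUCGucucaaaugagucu
miR-381-3p: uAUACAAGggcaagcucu
miR-300-3p: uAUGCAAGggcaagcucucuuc
miR-494-3p: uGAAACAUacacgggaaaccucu
miR-409a-5p: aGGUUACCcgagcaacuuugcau
miR-770-3p: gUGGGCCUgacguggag

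The 53 members with a sequence had 53 different seeds. Only miR-329-3p shared its seed with another measured miRNA, miR-362-3p from outside the domain, which made 1.89% of members with a shared seed, against 35.0% of the 329 other miRNAs with a RefSeq sequence. Several seeds differed by a single base, counted from the 5′ end. From miR-379-5p to miR-411-5p the difference was G2A, and from miR-300-3p to miR-381-3p it was G4A. Over the 18 bases of miR-381-3p that was the only mismatch to miR-300-3p, so reads of these 2 members may not have been fully told apart. A first base of U was found in 41.5% of members, against 39.8% of the other miRNAs. Mature members were 17 to 25 bases long, with a median of 22.

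The deposited value is a normalized CPM, the number of reads scaled by the library total and by a composition factor. In each library 100% of the values were whole multiples of 1 step, the worth of 1 read, within a tolerance of 1e-06. Reads were recovered from that step. The libraries held 3033119 to 4999379 miRNA reads in EXO2 and 2279500 to 5868405 in EXO1. A value of 0 allows up to 3 reads, the floor used here, which was worth 0.538 to 0.798 normalized CPM in EXO2 and 0.649 to 1.90 in EXO1. Intervals and floors cover counting error only.

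EXO1 replicate 1 stood apart from the other 5 libraries. Muscle miRNAs (9 mature forms of the 8 listed, such as miR-1 and miR-133a) made up 1.23, 1.51 and 0.739% of reads in EXO2 and 82.6, 23.2 and 0.909% in EXO1. The composition factors were 1.38, 1.04 and 0.941 in EXO2 and 0.264, 1.86 and 1.52 in EXO1, so the values of EXO1 replicate 1 stood above plain CPM. Red blood cell miRNAs (14 mature forms of the 10 listed, such as miR-451 and miR-144) made up 58.0 to 68.2% of reads in EXO2 and 7.91 to 24.3% in EXO1, with no overlap. Over reads outside muscle miRNAs they made 58.8, 65.8 and 68.7% in EXO2 and 45.4, 31.6 and 11.7% in EXO1, also without overlap. No measured form of either list was at 0 in every library. Proteins that define exosomes cannot be checked in a table of miRNAs.

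As a whole the cluster was a small part of the miRNA of these vesicles, and its summed level did not separate the groups. The members summed to 7019, 13663 and 4821 reads in EXO2 replicates 1, 2 and 3, and to 5146, 2639 and 9531 reads in EXO1. Their share of all miRNA reads was 0.231% (95% Wilson interval 0.226 to 0.237), 0.273% (0.269 to 0.278) and 0.129% (0.126 to 0.133) in EXO2. In EXO1 the share was 0.0877% (0.0853 to 0.0901), 0.116% (0.111 to 0.120) and 0.338% (0.331 to 0.345). The lowest and the highest library were thus both EXO1, and they differed by more than their counting intervals.

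Counted over reads outside muscle miRNAs, the shares were 0.234, 0.277 and 0.130% in EXO2 and 0.503, 0.151 and 0.341% in EXO1, and EXO1 replicate 1 moved to the highest place. In normalized CPM the members summed to 1554, 2452 and 1283 in EXO2 and to 3260, 571 and 2105 in EXO1. The log2 difference, EXO2 minus EXO1, was 0.11 with a pooled SD of 0.99, so it was far smaller than the spread between libraries. Its sign depended on the scaling and on single libraries, between -0.63 and 0.63 when each library was left out.

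What differed was how many members were seen. In EXO2, 22, 27 and 14 members were above the floor, against 34, 47 and 43 in EXO1, and the groups did not overlap (means 21.0 ± 6.56 and 41.3 ± 6.66, SD, n = 3 each). As shares of the 55 members these were 40.0, 49.1 and 25.5% in EXO2 and 61.8, 85.5 and 78.2% in EXO1. Over all 420 miRNAs the shares were 61.0, 65.2 and 58.3% in EXO2 and 69.8, 92.6 and 81.0% in EXO1, which also did not overlap. With the highest floor of the 6 applied to all libraries, a choice made after seeing the data, the counts were 21, 25 and 14 members in EXO2 and 34, 32 and 43 in EXO1. The shares of all miRNAs were then 60%, 59.3% and 54.0% in EXO2 and 69.8, 83.8 and 78.1% in EXO1. With a floor of its own, EXO1 replicate 2 was the library with the fewest reads and the most members above the floor.

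Only 9 members were above the floor in all 6 libraries. They were miR-127-3p, miR-434-5p, miR-341, miR-370-3p, miR-379-5p, miR-411-5p, miR-495, miR-382-5p and miR-134-5p. They made 9 of 55, whereas 44.5% of the 420 miRNAs met that condition. At the other end, 22 members were at or under the floor in every EXO2 library, against 25.5% of the 420. In 10 of these no read was found in EXO2, and miR-668 alone had none in EXO1.

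**Figure D1:**
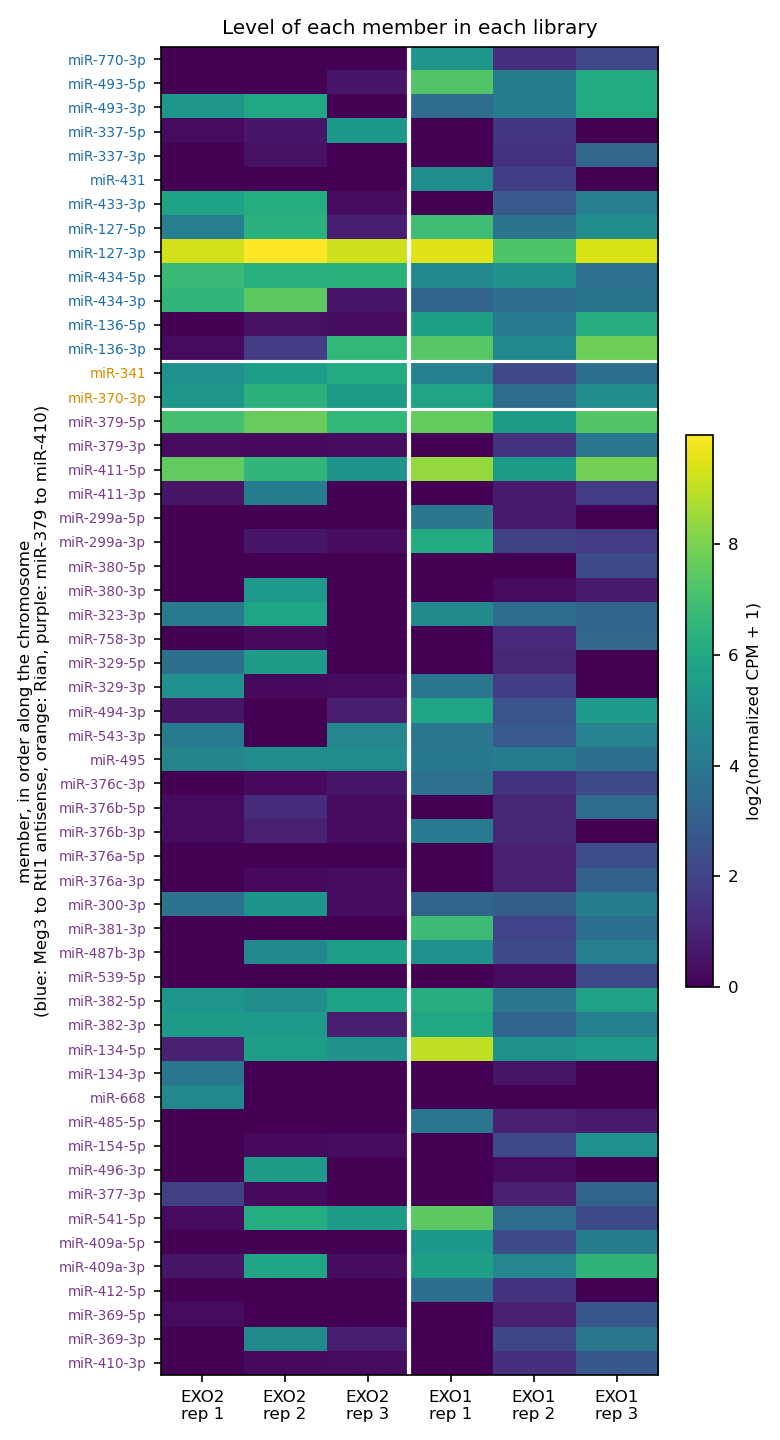
Heat map of the 55 members (rows, in order along the chromosome, coloured by sub-cluster) in the 3 EXO2 and the 3 EXO1 libraries (columns), with colour giving log2(normalized CPM + 1). miR-127-3p is the brightest row in every library, and 22 members are at or near the dark end in all 3 EXO2 libraries.

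Members were often either plainly present or nearly absent within a library. EXO2 replicate 3 had 22 members at 0, 19 with 1 to 3 reads, none with 4 to 9, and 14 with at least 88 reads. EXO2 replicate 1 had a single member with 4 to 9 reads and EXO2 replicate 2 had 2. In EXO1 replicate 1, 21 members were at 0 and the other 34 had at least 13 reads. EXO1 replicate 2 was different, with 2 members at 0 and 16 with 4 to 9 reads, and EXO1 replicate 3 had none with 4 to 9.

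The share of members with 1 to 9 reads was 20%, 25.5% and 34.5% in EXO2 and 0, 40.0 and 3.64% in EXO1. Over all 420 miRNAs it was 8.33, 18.8 and 20.5% in EXO2 and 7.86, 16.0 and 6.19% in EXO1. miR-496-3p had 243 reads in EXO2 replicate 2 and 0 in the other EXO2 libraries, and miR-668 had 110 reads in EXO2 replicate 1 and 0 in the other 5 libraries. Such members differ between the groups by a single library.

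**Figure D2:**
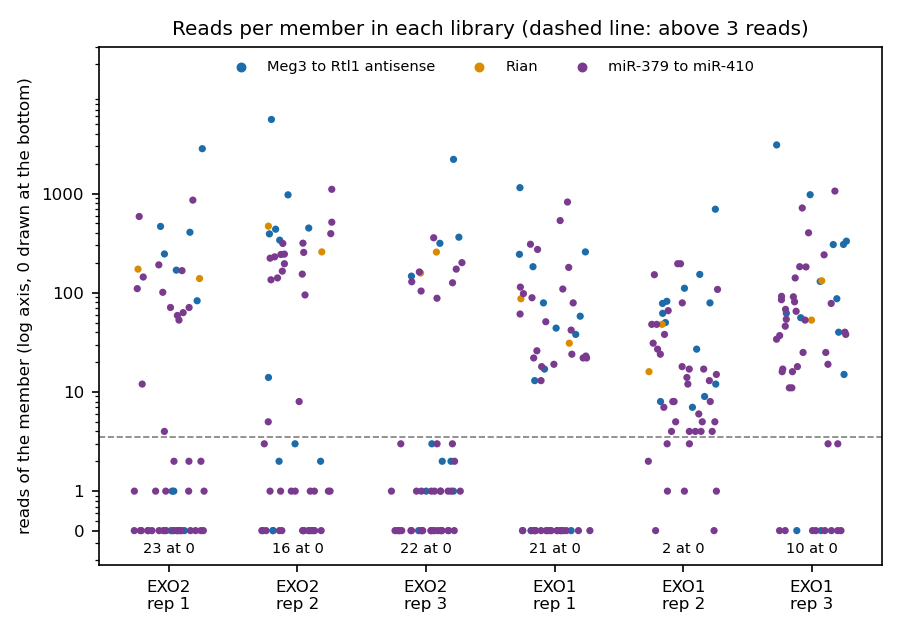
Reads of each member in each library on a log axis, with members at 0 at the bottom and a dashed line above 3 reads, EXO2 on the left and EXO1 on the right. EXO1 replicate 2 fills the range from 4 to 9 reads with 16 members, whereas the other 5 libraries hold 0 to 2 there.

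miR-127-3p was the most abundant member in every library. It is processed from the transcript antisense to Rtl1, and in mouse it is perfectly complementary to Rtl1. It had 627, 1002 and 588 normalized CPM in EXO2 and 726, 150 and 683 in EXO1, and the groups overlapped. Its log2 fold change, EXO2 over EXO1, was 0.77 ± 0.64 (SE, limma, adjusted p = 0.502). Its share of the cluster's reads did separate the groups, with 40.3, 40.8 and 45.8% in EXO2 against 22.3, 26.3 and 32.4% in EXO1. It took rank 67 to 80 among all miRNAs in EXO2 and rank 70 to 115 in EXO1.

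How far the cluster was concentrated in a few members did not fully separate the groups. To reach 90% of the cluster's reads took 12, 17 and 10 members in EXO2 and 17, 22 and 19 in EXO1, which met at 17. The 5 most abundant members held 73.4, 63.2 and 72.7% in EXO2 and 59.9, 52.7 and 65.5% in EXO1, and these ranges overlapped. Which members stood behind miR-127-3p changed from library to library, as the following values show.

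miR-379-5p and miR-411-5p, neighbours at the start of the third sub-cluster whose seeds differ by G2A, were among the 5 most abundant members in most libraries. miR-379-5p had 130, 198 and 95.3 normalized CPM in EXO2 and 195, 42.4 and 158 in EXO1. miR-411-5p had 190, 92.3 and 34.3 in EXO2 and 338, 42.4 and 234 in EXO1. For each of them the groups overlapped, and the lowest EXO1 value came from replicate 2. The log2 fold changes were 0.30 ± 0.78 for miR-379-5p and -0.82 ± 0.92 for miR-411-5p (SE, limma, adjusted p = 0.841 and 0.610).

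Both arms of the miR-434 hairpin, also antisense to Rtl1, were among the 5 most abundant members in at least 1 library. miR-434-5p had 103, 78.4 and 83.8 normalized CPM in EXO2 and 24.1, 33.1 and 12.4 in EXO1, without overlap. The log2 fold change of 1.98 ± 0.99 (SE, limma, adjusted p = 0.362) did not pass the unadjusted threshold. With unmoderated variances it did (adjusted p = 0.211). miR-434-3p had 90.1, 174 and 0.532 in EXO2 and 8.24, 10.8 and 13.7 in EXO1. Its EXO2 replicate 3 value stood for 2 reads and was below every EXO1 library, while the other EXO2 libraries were above all of EXO1. For this arm the log2 fold change was 1.31 ± 1.76 (SE, limma, adjusted p = 0.678), and without that library it was 3.43 and passed the unadjusted threshold (adjusted p = 0.563). Each arm of miR-434 had more than 1 entry, and with the entries summed miR-434-5p passed the unadjusted threshold (log2 fold change 2.01, limma, adjusted p = 0.334).

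The 2 members of the Rian sub-cluster were seen in all libraries. miR-341, which has been described in rodents, had 30.8, 46.3 and 68.4 normalized CPM in EXO2 and 19.6, 3.46 and 11.7 in EXO1, without overlap. Its log2 fold change came to 2.16 ± 1.33 (SE, limma, adjusted p = 0.401), and passed the unadjusted threshold only with unmoderated variances (adjusted p = 0.358). miR-370-3p, which in human liver cells is known to act on the carnitine palmitoyltransferase CPT1A, had 38.3, 84.2 and 42.0 in EXO2 and 55.1, 10.4 and 29.2 in EXO1, and here the groups overlapped. The estimate was 0.97 ± 1.12 (adjusted p = 0.620).

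miR-134-5p, a brain-enriched miRNA that restrains dendritic spine size through Limk1 in rat neurons, had 0.885, 45.8 and 33.5 normalized CPM in EXO2 and 520, 32.9 and 40.2 in EXO1. The value of EXO2 replicate 1 rested on 4 reads, and EXO1 replicate 1 was over the others, so the groups overlapped between 32.9 and 45.8. The log2 fold change of -2.63 ± 1.47 (SE, limma, adjusted p = 0.385) passed the unadjusted threshold only without EXO2 replicate 2 (-3.48, adjusted p = 0.475) or EXO2 replicate 3 (-3.26, adjusted p = 0.572). miR-541-5p, from the far end of the third sub-cluster, had 0.221, 70.7 and 43.1 in EXO2 and 173, 10.4 and 3.98 in EXO1, and the groups overlapped. Its log2 fold change of -0.45 ± 1.86 changed sign when EXO2 replicate 1 or EXO1 replicate 1 was left out (1.39 and 1.06).

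The sub-clusters took different shares of the cluster in the groups. The Meg3 to Rtl1 antisense members held 59.9, 59.9 and 63.1% of its reads in EXO2 and 40.4, 52.0 and 56.6% in EXO1. The Rian members held 4.45, 5.32 and 8.61% in EXO2 and 2.29, 2.43 and 1.94% in EXO1. The miR-379 to miR-410 members held 35.6, 34.7 and 28.3% in EXO2 and 57.3, 45.5 and 41.4% in EXO1. None of the 3 shares overlapped between groups. The shares add up to 100% in a library, so they are not independent of one another, and they do not depend on scaling.

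Without miR-127-3p the Meg3 to Rtl1 antisense share was 32.8, 32.3 and 31.9% in EXO2 and 23.4, 34.9 and 35.8% in EXO1, and the groups overlapped. The Rian share was then 7.45, 9.00 and 15.9% in EXO2 and 2.95, 3.29 and 2.87% in EXO1, still apart. The share from miR-379 to miR-410 was 59.8, 58.7 and 52.2% in EXO2 and 73.7, 61.8 and 61.3% in EXO1, also apart. When miR-379-5p and miR-411-5p were not counted, the other 38 members of this sub-cluster overlapped between groups. They held 25.2, 38.7 and 33.5% of the same reads in EXO2 and 52.65, 41.7 and 33.8% in EXO1.

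**Figure D3:**
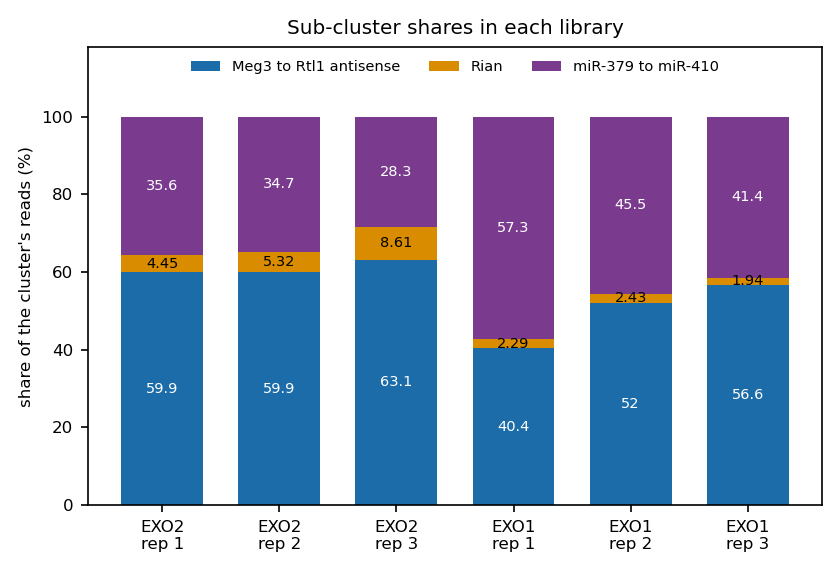
Stacked bars of the share of the cluster's reads (%) held by each sub-cluster in each library, EXO2 on the left and EXO1 on the right. The Meg3 to Rtl1 antisense part is 59.9 to 63.1% in EXO2 and 40.4 to 56.6% in EXO1, and the miR-379 to miR-410 part is 28.3 to 35.6% in EXO2 and 41.4 to 57.3% in EXO1.

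In normalized CPM the sums of the sub-clusters overlapped between groups. The Meg3 to Rtl1 antisense members summed to 931, 1470 and 810 in EXO2 and 1318, 297 and 1192 in EXO1. The Rian members summed to 69.1, 130 and 110 in EXO2 and 74.8, 13.8 and 40.9 in EXO1. The miR-379 to miR-410 members summed to 554, 852 and 362 in EXO2 and 1868, 260 and 872 in EXO1. The log2 differences were 0.42, 1.52 and -0.44, with pooled SDs of 0.91, 0.93 and 1.10.

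Each member was then compared by limma on log2(normalized CPM + 1), with p-values adjusted over all 410 miRNAs that had a read in 2 or more libraries. On this scale the change of a low miRNA is understated. Of the 55 members 53 were tested, and miR-380-5p and miR-668 were seen in 1 library each. No member passed an adjusted p of 0.05 (limma), nor did any of the 410 miRNAs (0%), and the smallest adjusted p among members was 0.297. At an unadjusted p under 0.05, 7 members and 54 of all miRNAs passed.

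At the study's thresholds, a fold over 1.5 and an unadjusted p under 0.05, 7 of 53 members (13.2%) were lower in EXO2, where 7.32% of all 410 miRNAs were, and 0 were higher, where 5.85% of all were. The 7 were miR-493-5p, miR-136-5p, miR-381-3p, miR-494-3p, miR-409a-5p, miR-136-3p and miR-770-3p. The count was 16 of 50 (32.0%, against 18.3% of all miRNAs) without EXO1 replicate 1. It was 2 of 23 (8.70%, against 6.64% of all) when a value of 10 or more in at least 3 libraries was required. All but miR-136-3p are among the miRNAs that the study itself had picked from these libraries as lower, so they are not independent evidence, and it had picked miR-134-5p, miR-299a-3p, miR-431 and miR-485-5p as lower and miR-496-3p as higher in the same way.

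The median log2 fold change was -0.87 over the 53 members and -0.56 over all 410 miRNAs. With the 9 tested members that had no EXO2 read set to their floor, it was -0.82. Estimates were negative for 38 members and positive for 15, and over all 410 miRNAs for 256 and 154. In 9 members every EXO2 library was below every EXO1 library, a pattern of 9.51% of all miRNAs, and in 3 every EXO2 library was above, a pattern of 11.5% of all. By sub-cluster, 4 of 13 members from Meg3 to Rtl1 were lower, 0 of 2 of Rian, and 3 of 38 from miR-379 to miR-410.

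**Figure D4:**
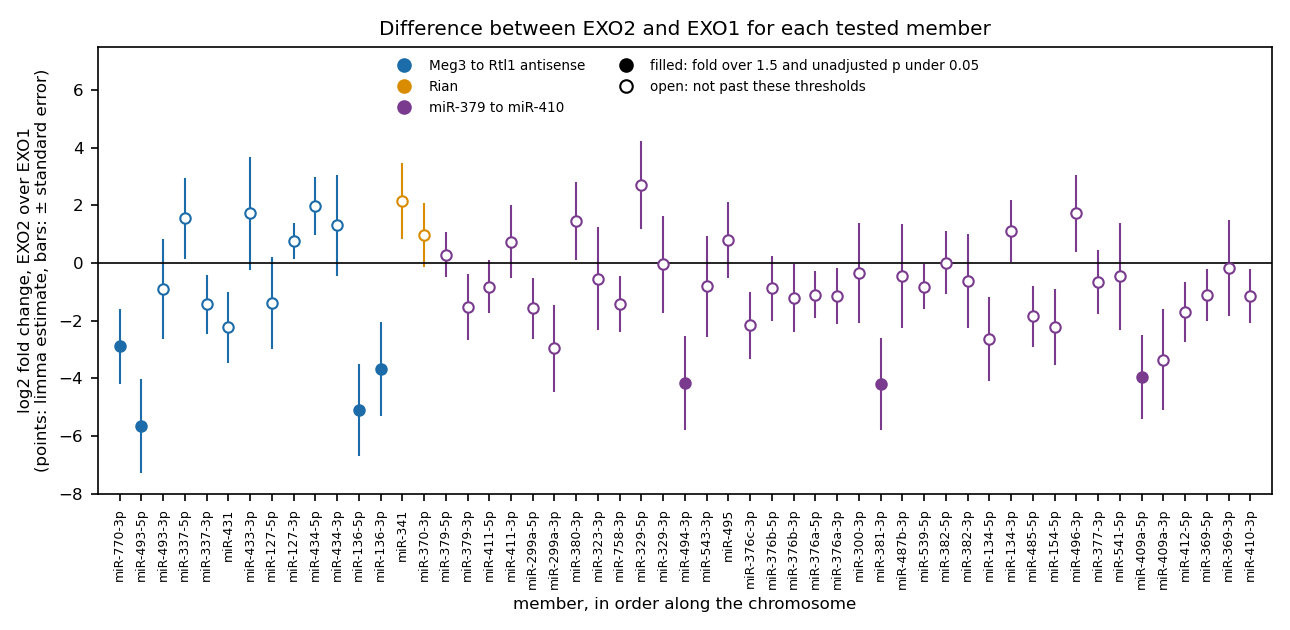
Log2 fold change of EXO2 over EXO1 (limma estimate with its standard error) for the 53 tested members in order along the chromosome, filled where the fold was over 1.5 with an unadjusted p under 0.05. The 7 filled points lie between -5.65 and -2.89, and the highest open point is miR-329-5p at 2.70.

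miR-493-5p had the lowest estimate of the cluster. It had 0, 0 and 0.532 normalized CPM in EXO2 and 155, 17.1 and 67.8 in EXO1, that is 2 reads in all of EXO2 and 630 in EXO1. The ratio of these reads per unit of scaling was 0.00246 (95% exact counting interval 0.000297 to 0.00892). In limma the log2 fold change was -5.65 ± 1.64 (SE, adjusted p = 0.297).

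miR-136-5p, antisense to Rtl1, was alike, with 0, 0.359 and 0.266 normalized CPM in EXO2 and 50.1, 16.9 and 73.1 in EXO1. These were 3 reads in EXO2 and 488 in EXO1, a ratio of 0.00476 (0.000979 to 0.0140). The log2 fold change was -5.09 ± 1.60 (SE, limma, adjusted p = 0.297). The other arm, miR-136-3p, had 0.221, 2.51 and 96.6 in EXO2 and 164, 24.0 and 215 in EXO1. EXO2 replicate 3, with 363 reads, lay inside the range of EXO1, so for this arm the groups overlapped. The 3p estimate of -3.68 ± 1.64 (SE, limma, adjusted p = 0.342) passed the unadjusted threshold with all libraries and without EXO2 replicate 3, and missed it without any other library. It also missed it with all libraries under library totals only (-3.53, adjusted p = 0.552), the filter of 10 or more (adjusted p = 0.312) and unmoderated variances (adjusted p = 0.510). Without a library the estimates were -2.38 and -3.14 without EXO2 replicates 1 and 2 (adjusted p = 0.575 and 0.488), and -3.30, -4.65 and -3.10 without EXO1 replicates 1, 2 and 3 (adjusted p = 0.367, 0.319 and 0.502).

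miR-381-3p, from the middle of the third sub-cluster, had no read in EXO2 and 114, 3.03 and 11.9 normalized CPM in EXO1. By group means in normalized CPM, against the floor of 3 reads per library, it was at least 64.5-fold lower in EXO2. Without EXO1 replicate 1, whose values stood above plain CPM, it was at least 11.2-fold lower. Such bounds cover counting error on this scaling only. The log2 fold change was -4.18 ± 1.60 (SE, limma, adjusted p = 0.333). miR-300-3p, its near copy, had 13.1, 35.2 and 0.266 in EXO2 and 8.24, 6.71 and 17.2 in EXO1, with a log2 fold change of -0.34 ± 1.74. The pair thus differed in EXO2 replicates 1 and 2, where miR-300-3p had 59 and 196 reads.

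miR-409a-5p also had no read in EXO2, and 38.6, 3.89 and 17.9 normalized CPM in EXO1. By group means in normalized CPM it was at least 30.2-fold lower (at least 16.3-fold without EXO1 replicate 1). The log2 fold change was -3.95 ± 1.45 (SE, limma, adjusted p = 0.333). It just missed the unadjusted threshold without EXO2 replicate 3 (adjusted p = 0.572). Its partner arm miR-409a-3p had 0.443, 56.7 and 0.266 in EXO2 and 50.1, 23.4 and 88.8 in EXO1. EXO2 replicate 2 lay among the EXO1 libraries, and the log2 fold change was -3.35 ± 1.74 (SE, limma, adjusted p = 0.369). When that library was left out it was -5.16 and passed the unadjusted threshold (adjusted p = 0.475).

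miR-494-3p, from the third sub-cluster, had 0.443, 0 and 0.798 normalized CPM in EXO2 and 56.4, 5.19 and 40.4 in EXO1. All EXO2 libraries were at or under 3 reads and all EXO1 libraries had at least 24. The estimate was -4.16 ± 1.62 on the log2 scale (SE, limma, adjusted p = 0.333), and without EXO2 replicate 2 it was -3.93 and just missed the unadjusted threshold (adjusted p = 0.475). miR-770-3p, the member within Meg3, had no read in EXO2 and 36.7, 1.51 and 3.31 in EXO1. By group means in normalized CPM it was at least 20.8-fold lower, or at least 3.62-fold without EXO1 replicate 1. Here the log2 fold change was -2.89 ± 1.30 (SE, limma, adjusted p = 0.342), and it missed the unadjusted threshold without EXO2 replicate 1, 2 or 3 (adjusted p = 0.539, 0.552 and 0.612). With all libraries it also missed that threshold under unmoderated variances.

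A further 2 members were alike without passing the thresholds. miR-299a-3p had 0, 0.538 and 0.266 normalized CPM in EXO2 and 69.1, 2.81 and 2.43 in EXO1, with a log2 fold change of -2.96 ± 1.51 (SE, limma, adjusted p = 0.368). miR-376c-3p, one of the miR-376 family with near-alike seeds, had 0, 0.179 and 0.532 in EXO2 and 12.04, 1.73 and 3.53 in EXO1, with -2.16 ± 1.16 (adjusted p = 0.379). Without EXO1 replicate 1, which had the highest value of each, they were -1.53 and -1.53 and both passed (adjusted p = 0.167 and 0.170). miR-299a-3p also passed without EXO1 replicate 3 (-3.71, adjusted p = 0.273) and miR-376c-3p without EXO1 replicate 2 (-2.66, adjusted p = 0.293). With all libraries and unmoderated variances miR-376c-3p passed as well (adjusted p = 0.358). With the 6 lower members other than miR-136-3p they made 8 members above the floor in every EXO1 library and in no EXO2 library. Over all 420 miRNAs 4.76% had that pattern, and the reverse pattern had 0 members and 0 miRNAs.

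The highest estimates were those of miR-329-5p, miR-341 and miR-434-5p. miR-329-5p, from a sub-cluster that the factor Mef2 switches on in active rat neurons, had 11.7, 44.0 and 0 normalized CPM in EXO2 and 0, 1.08 and 0 in EXO1. EXO2 replicate 3 had no read and was under EXO1 replicate 2, which had 5. The estimate was 2.70 ± 1.53 on the log2 scale (SE, limma, adjusted p = 0.389), and without EXO2 replicate 3 it was 4.23 and passed the unadjusted threshold (adjusted p = 0.563).

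The mature arms were then set against each other within a hairpin, a ratio that scaling does not touch. Names gave 21 members as 5p, 30 as 3p and 4 with no arm. Of 39 precursors 16 had both arms in the table, and summed over the libraries the 5p arm led in 7 and the 3p arm in 9. No precursor had both arms above the floor in every library, so no test of the arm ratio was run. Among libraries with over 3 reads of the precursor, the leading arm was the same throughout in 7 precursors and changed in 8.

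The fixed ones included the most abundant hairpins. For miR-127 the 3p arm led in all 6 libraries, and the 5p arm had 2.85, 7.45 and 0.136% of its reads in EXO2 and 13.8, 8.19 and 4.04% in EXO1. For miR-379 the 5p arm had 99.8, 99.9 and 99.7% in EXO2 and 100, 96.1 and 91.3% in EXO1. For miR-411 it had 99.8, 84.4 and 100% in EXO2 and 100, 98.5 and 99.0% in EXO1. These hairpins kept 1 arm in front in both groups.

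miR-493 was among the precursors whose 5p share did not overlap between groups in libraries with over 3 reads. In EXO2 replicates 1 and 2 it gave 0 reads of the 5p arm and 169 and 339 of the 3p arm, and EXO2 replicate 3 gave 2 reads of 5p and none of 3p. In EXO1 the 5p and 3p reads were 244 and 17, 79 and 82, and 307 and 306. The 5p share was thus 0% in the 2 EXO2 libraries with over 3 reads, against 93.5, 49.1 and 50.1% in EXO1. In normalized CPM miR-493-3p itself had 37.4, 60.9 and 0 in EXO2 and 10.8, 17.7 and 67.6 in EXO1, and overlapped.

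miR-434 and miR-382 had changing arms. The 5p share of miR-434 was 53.4, 31.1 and 99.4% in EXO2 and 74.5, 75.4 and 47.5% in EXO1. That of miR-382 was 46.6, 41.8 and 98.5% in EXO2 and 53.8, 63.5 and 72.6% in EXO1. In EXO2 replicate 3 the 3p arms of these hairpins had 2 and 3 reads beside 315 and 201 of the 5p arms. The same library had 3 reads of miR-127-5p beside 2210 of miR-127-3p, and 1 read of miR-136-5p beside 363 of miR-136-3p. EXO2 replicate 1 gave 4 reads of miR-134-5p and 63 of miR-134-3p, whereas the 5p arm had at least 98.7% in the other 5 libraries.

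**Figure D5:**
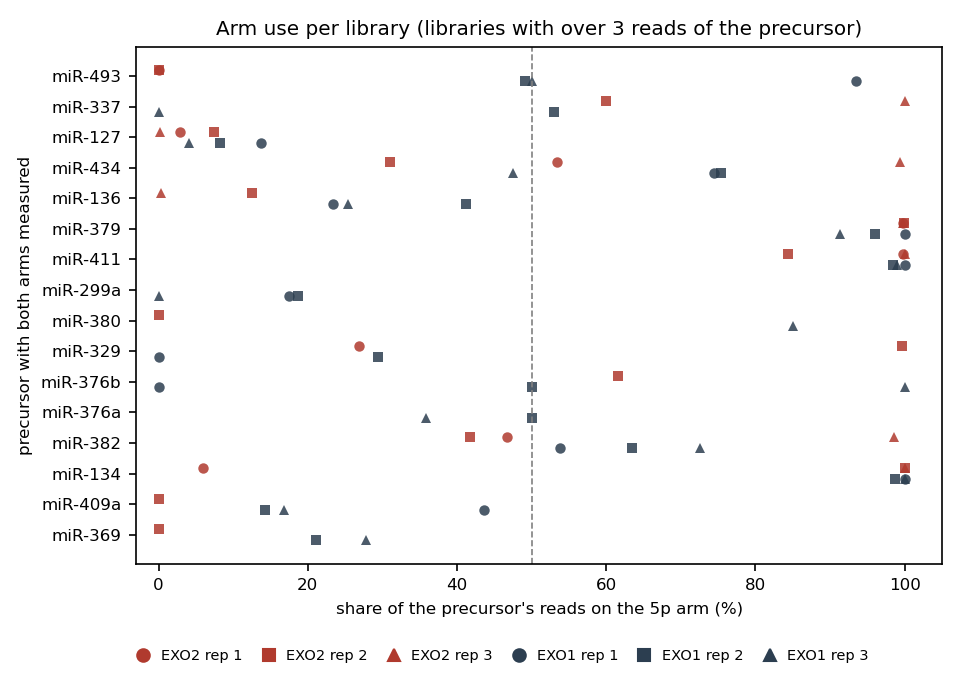
Share of a precursor's reads on the 5p arm (%), for the 16 precursors with both arms in the table and the libraries with over 3 of their reads, EXO2 in red above EXO1 in dark blue. miR-127 stays at 0.136 to 13.8% and miR-379 at 91.3 to 100%, whereas miR-434 and miR-382 lie on either side of 50%.

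Vascular and mesenchymal miRNAs (23 mature forms of the 12 listed, such as miR-143 and miR-199a) were set beside these values, as their cells could add to plasma RNA. Over reads outside muscle miRNAs they made 2.81, 2.39 and 1.57% in EXO2 and 5.91, 7.76 and 24.1% in EXO1, without overlap. On that scale they were higher in EXO1, as were the lower members and the number of members seen. This likeness is not independent evidence, because the lower members were picked for being lower. The marker lists were chosen with earlier results of these data known. From these libraries the study had picked forms of miR-143, miR-199a and miR-122 as lower, and of miR-451 and miR-144 as higher. Within EXO1 the order differed, with the vascular share highest in replicate 3 and the most members above the floor in replicate 2. Of the lower members, miR-493-5p and miR-381-3p were highest in replicate 1 and miR-136-5p in replicate 3. Over all reads the vascular and mesenchymal miRNAs made 2.77, 2.35 and 1.56% in EXO2 and 1.03, 5.96 and 23.9% in EXO1, and the groups overlapped. Liver miRNAs (5 mature forms of the 3 listed, such as miR-122) moved alike outside muscle miRNAs, with 1.09, 0.536 and 0.549% in EXO2 and 3.88, 1.30 and 10.3% in EXO1, and overlapped over all reads, with 1.08, 0.528 and 0.545% in EXO2 and 0.676, 1.001 and 10.2% in EXO1. Red blood cell miRNAs moved the other way on both scales, and the lists of brain, of pancreas and of platelets and leukocytes overlapped between groups outside muscle miRNAs. None of the measured forms was at 0 in every library. The part of these lists in the differences among members was not tested. In plasma, fewer vesicles of a source and fewer copies in each vesicle cannot be told apart.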

How the data were processed

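Small RNA of plasma exosomes was measured in 6 libraries, 3 of EXO2 and 3 of EXO1, grouped by the labels. The authors discarded reads under 15 nucleotides and used miRDeep2 for annotation. Their deposited signal, headed CPM, is no count but reads scaled by a library total and a composition factor. Among the tools listed in the submitters' processing notes are Bowtie, cutadapt 1.14 and edgeR 3.18.1. Not given in the sources used here are the genome build and the miRNA annotation release. The deposited log2 values of group means, and the authors' fold changes and p-values, were not used.

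Of 468 entries, 420 mature miRNAs were kept, 43 of which had been listed more than once. Reads were recovered from the step of each library. A count test was left out, because 5 of the 6 libraries did not meet a separate rule for accepting recovered reads as counts. In each library 100% of the values were nevertheless whole multiples of its step. The recovered reads were still used for floors, intervals, shares, arm use and the members seen. EXO2 was compared with EXO1 by limma 3.58.1 (eBayes with trend, R 4.3.3) on log2(value + 1) without covariates, for the 410 miRNAs with a read in 2 or more libraries. The p-values were adjusted over all of them (Benjamini-Hochberg). The test was checked on data simulated with normal noise on the log2 scale. These held no values fixed at the floor and no shift of composition, so the check does not cover members without reads. Total depth was 2279500 to 5868405 miRNA reads, and shares of reads have 95% Wilson intervals. Ratios of 1 to 3 reads have exact counting intervals, and members without a read were set against 3 reads per library.

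Values per library were given for members that were among the 5 most abundant in a library, passed the study's thresholds, were above the floor in every library of 1 group only, or had 1 of the 3 largest positive fold changes. miR-493-3p, miR-300-3p, miR-496-3p, miR-668 and the arms named were added after their values were seen. The members, the sub-clusters and the marker lists were chosen with earlier results of these data known. The alternatives were 2 other scalings, 2 filters, 2 pseudocounts, unmoderated variances, summed entries, a replicate block and leaving out each library. Python 3.11.15, numpy 2.4.6, pandas 2.3.3, scipy 1.17.1 and matplotlib 3.10.9 were used. Sequences and positions are from RefSeq (GRCr8).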

Additional observations from a re-analysis of the deposited data

How the results depend on the processing

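No member passed an adjusted p of 0.05 under any alternative run. The count of members lower in EXO2, 7 of 53, stayed within 6 to 8 under the other scalings, pseudocounts, variances, entries and no filter, and was 2 of 23 with the filter on values of 10 or more, which tested fewer members. Leaving out each library gave 5 to 16, with 16 without EXO1 replicate 1. The count of members higher in EXO2, 0, became 3 with unmoderated variances and 1 with summed entries, and 0 to 2 with each library left out (2 without EXO2 replicate 3). Precursors allowing a test of the arm ratio were 0 with both arms above the floor in every library and 3 with both arms above 0. The causes of these shifts were not tested.

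The log2 fold change of miR-379-5p was 0.30 with all libraries and ranged between -0.38 (without EXO1 replicate 2) and 0.71. That of miR-541-5p was -0.45 and ranged between -1.55 and 1.39 (without EXO2 replicate 1), with 1.06 without EXO1 replicate 1. The other 18 members chosen by the naming rule kept their sign under the alternatives of the fit that were run. The median of all miRNAs was -0.43 with library totals only and -0.68 with median-ratio size factors, against -0.56, and the median of the members was -0.90 and -1.02, against -0.87. The log2 difference of the summed cluster was 0.42 as a share of all reads, -0.54 as a share outside muscle miRNAs and -0.23 without miR-127-3p, against 0.11.

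No sign of pairing by replicate number was seen, as the deviations of libraries with the same number correlated at -0.036, 0.055 and -0.12. The labels do not say whether libraries were handled in pairs, and these correlations cannot decide it. With the replicate block 6 members were lower and 0 higher, and miR-770-3p no longer passed the unadjusted threshold (limma, adjusted p = 0.491).

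Only 3 libraries per group were available, and depth outside muscle miRNAs was 2995789, 4923914 and 3703964 reads in EXO2 and 1022843, 1749983 and 2794125 in EXO1, so a member at 0 in EXO1 replicate 1 was tested at the lowest depth. A member absent from a library was not detectable at its depth, which does not show that it was absent from the plasma.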

Other observations

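A pair of miRNAs of the domain lay outside the list of numbers. miR-6331, whose hairpin lies within the span of the cluster, had 93, 0 and 0 reads in EXO2 and 0, 11 and 0 reads in EXO1. miR-1247-3p, from the far side of the domain near Dio3, had no read in EXO2 and 0, 0 and 20 reads in EXO1. Each was above the floor in 1 or 2 libraries, and neither group held it throughout.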
